A study of Mus musculus with 15 samples.

Results

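Cell cycle and DNA replication genes were examined in the femoral callus region of mice flown on the International Space Station and of ground controls. The group holds 38 genes, given as a list of names. Of these, 14 act in S phase, where DNA is copied, and 24 act in G2 phase and mitosis, where chromosomes are condensed and separated. They were found through the transcript accessions on the array, which gave 49 probes among the 28026 probes and 21154 genes that could be named. Each gene was read from the probe with the highest mean Cy5 signal over the 15 arrays, and 8 genes had more than 1 probe.

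All mice were male C57BL/6J, labelled 9 weeks old, which in the methods is about the age at surgery, and 1 array was hybridised per mouse. The 4 groups were G-Sham (ground, no defect, 4 mice), FLT-Sham (spaceflight, no defect, 4 mice), G-Surgery (ground, segmental bone defect, 4 mice) and FLT-Surgery (spaceflight, segmental bone defect, 3 mice). Surgery removed a segment of the femoral shaft, and the gap was held open by a scaffold wrapped in a collagen sponge soaked in saline, with no agent that promotes healing. The paper calls the Sham mice both sham-operated and unoperated, and the labels call their tissue callus although it was the same midshaft region of a femur without a defect. Mice were killed about 4 weeks after launch, so the data hold no early phase of repair. Flight and ground mice were kept in matching housing, with ground cohorts run asynchronously. RNA came from the whole milled midshaft and was of low integrity by the study's own check. In these bulk samples fewer cells of a type and less RNA per cell cannot be told apart.

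Cells that divide make the members in turn. E2f1 is a transcription factor that switches on genes for DNA synthesis, Ccne1 and Cdk2 form the kinase that starts S phase, Cdc6 loads the helicase made of Mcm2 to Mcm7, Pcna clamps the polymerase to DNA, and Tyms, Rrm1 and Rrm2 make its nucleotides. Ccna2, Ccnb1 and Ccnb2 are cyclins that activate Cdk1 for mitosis. Plk1, Aurka, Aurkb, Bub1, Bub1b and Ttk are mitotic kinases, Cdc20 and Ube2c serve the ubiquitin ligase that ends mitosis, Cenpa, Cenpe and Cenpf belong to centromeres and kinetochores, and Kif11, Kif23, Tpx2, Nusap1, Prc1 and Anln shape the spindle and the cleavage of the cell. Top2a untangles DNA, Birc5 belongs to the chromosomal passenger complex, and Mki67 encodes the Ki-67 antigen, the usual stain for dividing cells. In the femur, marrow precursors divide throughout life, and callus cells divide mainly in the first phases of repair.

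Promoters of S-phase and mitotic genes are known to carry different elements, and the members show this split. Entries for 34 members were found in the RefSeq promoter table (GRCm38.p6), 250 bases before to 50 after the first start listed. E2F sites were searched as TTTCCCGC or TTTGGCGC, the cell cycle homology region (CHR) as TTTGAA and the NF-Y box as CCAAT, each on both strands. An E2F sequence stood in 6 of 13 S-phase promoters and 0 of 21 mitotic promoters, beside 1.63% of the promoters of all 27025 genes. The CHR sequence stood in 1 of 13 S-phase and 16 of 21 mitotic promoters, beside 18.1% of all. CCAAT was common in both classes, in 9 of 13 and 18 of 21 promoters, beside 37.9% of all. The 200 bases before the start are shown for 4 members named below, 2 of each class, with those motifs in capitals. All 4 carry the motif of their class, and Mcm6 and Cdc20 passed no cut-off in the fits as reported. The motifs are matches of letters, not tested sites.
Cdk2 (chr10:128705052-128705251, minus strand): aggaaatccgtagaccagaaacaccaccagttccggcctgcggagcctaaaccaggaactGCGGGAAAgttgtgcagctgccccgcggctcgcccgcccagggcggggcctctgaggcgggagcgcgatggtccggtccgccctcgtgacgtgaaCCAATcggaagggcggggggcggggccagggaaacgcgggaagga
Mcm6 (chr1:128359706-128359905, minus strand): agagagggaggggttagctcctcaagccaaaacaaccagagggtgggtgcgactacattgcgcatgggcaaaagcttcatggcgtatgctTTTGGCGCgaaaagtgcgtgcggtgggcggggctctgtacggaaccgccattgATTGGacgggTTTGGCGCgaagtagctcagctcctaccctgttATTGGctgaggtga
Ube2c (chr2:164769729-164769928, plus strand): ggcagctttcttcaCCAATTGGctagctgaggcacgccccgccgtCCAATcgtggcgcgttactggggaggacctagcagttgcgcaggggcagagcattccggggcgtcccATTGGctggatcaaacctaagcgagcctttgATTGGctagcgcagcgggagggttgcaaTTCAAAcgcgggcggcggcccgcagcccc
Cdc20 (chr4:118437344-118437543, minus strand): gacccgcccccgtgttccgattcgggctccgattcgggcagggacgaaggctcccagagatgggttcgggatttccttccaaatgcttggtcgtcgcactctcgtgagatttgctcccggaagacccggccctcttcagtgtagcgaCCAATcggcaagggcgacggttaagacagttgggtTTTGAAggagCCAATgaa
Cdk2 and Mcm6 carry E2F sequences, 1 that begins 140 bases before the start of Cdk2 and 2 that begin 110 and 47 bases before the start of Mcm6. Ube2c and Cdc20 carry a CHR sequence that begins 29 and 18 bases before their starts. Mki67, not shown, has CHR sequences that begin 116 and 98 bases before its start.

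The measure is the log2 ratio of a sample (Cy5) to a common reference RNA pooled from mouse cell lines (Cy3), as deposited after dye normalization. Cy5 signals were well above background for 12493 to 21461 of 55681 probes, with medians of 15298 in G-Sham, 20144 in FLT-Sham, 16186 in G-Surgery and 14125 in FLT-Surgery. This number moved with the groups, and its part in the results was not tested. The arrays lay on 3 slides, of which the first and the second held arrays of all 4 groups and the third held G-Sham 4 alone. Over 8329 probes above background on all arrays, the correlation between pairs of arrays ran from 0.787 to 0.983. Skeletal muscle markers were above background on every array of a group for 8 or 9 of 10 genes and osteoblast and osteocyte markers for 2 to 4 of 11, so muscle RNA was present beside the labelled tissue.

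Members were low against the reference on every array. Averaged over arrays, 34 of 38 members lay below 0, and the 4 above 0 were Mcm6, Tyms, Tpx2 and Cdk1. Of the 27 members above background on 8 or more arrays, 85.2% lay below 0, with a median of -1.60, beside 42.5% of 15311 probes measured as often, with a median of 0.46. By array, the median of these members ran from -2.10 to -1.02, and the median of all probes from 0.05 to 0.68. After a further loess within arrays the members' median was -1.12, beside 1.32 for all probes. The reference is RNA of growing cell lines, which divide throughout culture. The part of this, or of the low integrity of the sample RNA, in the low ratios was not tested.

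**Figure D1:**
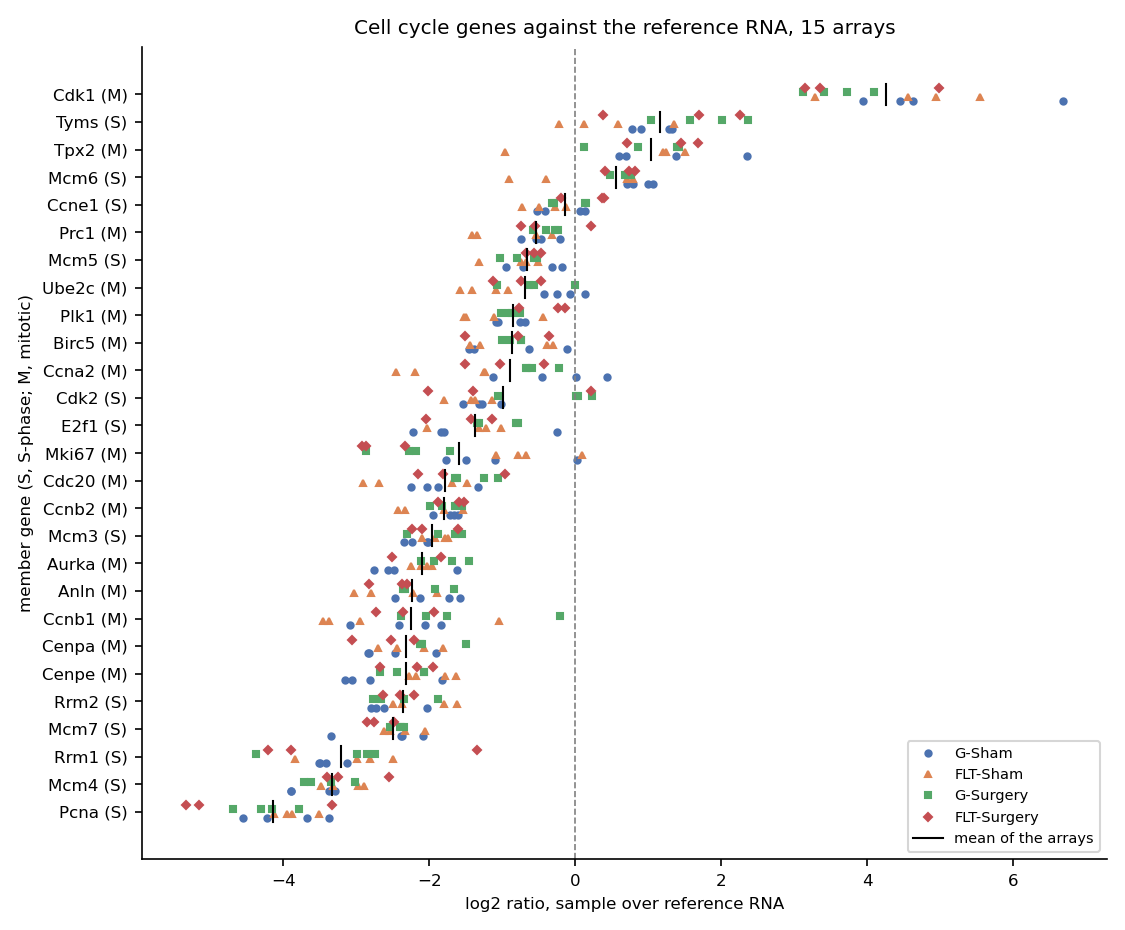
Log2 ratio to the reference RNA (x axis) of the 27 tested members (y axis, S for S-phase and M for mitotic genes), with a point for each of the 15 arrays by group and a bar at the mean. Means run from -4.14 for Pcna to 4.25 for Cdk1, and the groups overlap for most members.

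Of the 38 members, 11 were too dim to test. Cdc6, Top2a, Aurkb, Bub1, Bub1b, Kif11, Cenpf and Ttk were above background on 0 arrays, Kif23 on 1, and Mcm2 and Nusap1 on 2, and these few arrays were all FLT-Sham. The reference gave a signal above background on all 15 arrays for each of them except Aurkb. Top2a ratios lay between -5.83 and -3.33 on every array and Mcm2 ratios between -5.95 and -2.57, and with a Cy5 signal near background these say only that the level was low. Of the 27 others, 12 were S-phase and 15 mitotic genes, and 19 were above background on all 15 arrays.

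The subunits of the replicative helicase, which act as 1 complex, stood at different ratios. Mean log2 ratios over all arrays were 0.56 for Mcm6, -0.67 for Mcm5, -1.97 for Mcm3, -2.50 for Mcm7 and -3.34 for Mcm4, with Mcm2 not measured. Pcna was the lowest member tested, at -4.14, and was above background on 13 arrays. Rrm1 and Rrm2, subunits of ribonucleotide reductase, lay at -3.21 and -2.36, while Tyms lay at 1.16. Each is a ratio of 1 probe to the same probe in the reference, so levels of different genes cannot be ranked from them.

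Probes of 1 gene disagreed in level, most of all for Cdk1 and Tpx2. The brightest Cdk1 probe gave 3.11 to 6.68 on the 15 arrays, the highest of the members, while another gave -6.16 to -4.14 with no array above background in Cy5, and the remaining probe was above background in neither channel. For Tpx2 the probe used ran from -0.96 to 2.35, and the other, above background on 4 arrays, from -5.85 to -3.05. Values of both genes therefore depend on the probe, and by less so do those of Mki67, Birc5, Ube2c and Ccne1. Mki67 was read by 2 probes, above background on 15 and 14 arrays, that ran from -2.92 to 0.10 and from -5.87 to -2.20. Birc5 ran from -1.52 to -0.12 by the probe used and from -3.69 to -0.99 by the brighter of its others. For Mki67, Ube2c and Ccnb1 a second probe was also tested, and some of its differences had another size or sign, as given below. Second probes of Tpx2 and Birc5 were tested too. The Tpx2 sign turned, to 0.25 from -0.51 in FLT-Sham vs G-Sham, -0.74 from 0.53 in FLT-Surgery vs FLT-Sham and -0.76 from 0.83 in the interaction. Birc5 moved most in G-Surgery vs G-Sham, to -0.65 from 0.05, and FLT-Surgery vs FLT-Sham, to -0.70 from -0.03.

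Differences between groups were tested with limma over all probes whose Cy5 signal stood clear of background on 3 or more arrays of the comparison. The cut-off followed the study's methods, a 2-fold change or more with p up to 0.01 before adjustment, and p-values adjusted by Benjamini and Hochberg over all probes stand beside it. The members' counts are read against the share of all probes past the same cut-off. That share depends on how arrays are scaled, on the filter for dim probes and on single arrays. Of probes past the cut-off in FLT-Sham vs G-Sham, 353 were higher and 41 lower, and 161 and 86 after a further loess. With both channels above background on every array the counts were 31 and 24. In FLT-Surgery vs G-Surgery 173 were higher and 346 lower, against 1128 and 62 after loess, so the split turned round. In G-Surgery vs G-Sham the counts were 368 and 90, against 232 and 176, in FLT-Surgery vs FLT-Sham 81 and 1191, against 617 and 576, and for the interaction 78 and 1082, against 664 and 233. With 1 array left out, the counts higher and lower were 1772 and 299 without FLT-Sham 8 and 81 and 13 without FLT-Sham 6 in FLT-Sham vs G-Sham, 209 and 1844 without FLT-Surgery 1 in FLT-Surgery vs G-Surgery, 329 and 418 without G-Sham 1 in G-Surgery vs G-Sham, 947 and 3964 without FLT-Sham 8 and 25 and 272 without FLT-Sham 6 in FLT-Surgery vs FLT-Sham, and 819 and 2953 without FLT-Sham 8 for the interaction. No member reached an adjusted p of 0.05 in any comparison as fitted here, and the smallest in limma was 0.122, for Mki67 in FLT-Surgery vs FLT-Sham. With array weights 5 of 27 members did in FLT-Sham vs G-Sham, beside 5508 of 19739 probes. In FLT-Surgery vs FLT-Sham 9 of 27 did, beside 11010 of 19136 probes, and in the interaction 4 of 27, beside 7420 of 21777.

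Between FLT-Sham and G-Sham, the mitotic gene Ube2c was the only member past the cut-off, lower in spaceflight. Past the cut-off, 1 of 27 members was lower and 0 were higher, beside 0.208% of 19739 probes lower and 1.79% higher. An unadjusted p of at most 0.05 was reached by 2 members, beside 9.57% of probes, and an adjusted p of at most 0.05 by 0 members and 0% of probes in limma. The median log2 difference was -0.22 over the members, 0.11 over the 12 S-phase and -0.32 over the 15 mitotic ones, while that over all probes tested was 0.24.

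Ube2c is the ubiquitin-conjugating enzyme of the anaphase-promoting complex. Its log2 ratio was -0.42, 0.13, -0.25 and -0.08 on G-Sham 1, 3, 4 and 5, and -1.58, -1.42, -1.09 and -0.92 on FLT-Sham 4, 6, 8 and 9. Every FLT-Sham array lay below every G-Sham array, and the difference was -1.10 (standard error 0.30, adjusted p = 0.450 in limma). The second Ube2c probe, above background on all 15 arrays, gave -0.45 (standard error 0.39, adjusted p = 0.577 in limma), with means of -1.94 in FLT-Sham and -1.49 in G-Sham. Ube2c lost the call without G-Sham 3, 4 or 5 or FLT-Sham 4 or 6, with differences from -1.13 to -0.99. The count of members past the cut-off was 0 without G-Sham 3 or 4 or FLT-Sham 4 or 6, and 2 without FLT-Sham 8. Ube2c was also not called with slide as a block (-1.13), with its probes averaged (-0.77) or under normexp (-0.996). Within slides it was -1.70 and -0.89.

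Ccna2, cyclin A2, which acts in S phase and at entry into mitosis, missed the cut-off by its p. It read 0.44, 0.01, -0.45 and -1.13 on G-Sham 1, 3, 4 and 5 and -2.20, -2.46, -1.26 and -1.24 on FLT-Sham 4, 6, 8 and 9. These groups too did not overlap, with a difference of -1.50 (standard error 0.46, adjusted p = 0.491 in limma). Ube2c and Ccna2 were the 2 of 27 members whose arrays were all lower in spaceflight, beside 0.957% of probes.

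The spread within FLT-Sham was wide for mitotic genes. The median of the measured mitotic members was -2.20 and -2.12 on FLT-Sham 4 and 6 but -1.09 and -1.24 on FLT-Sham 8 and 9, and that of the S-phase members stayed between -1.98 and -1.58 on these arrays. Cdc20, which activates the anaphase-promoting complex, read -2.70 and -2.90 on FLT-Sham 4 and 6, -1.48 and -1.70 on FLT-Sham 8 and 9, and -1.89, -1.34, -2.25 and -2.03 on G-Sham 1, 3, 4 and 5. Mcm6 showed the same order, at -0.40, -0.90, 0.79 and 0.71 on FLT-Sham 4, 6, 8 and 9, while all 4 G-Sham arrays lay between 0.71 and 1.06. For 10 of 27 members, FLT-Sham 4 and 6 were the 2 lowest of the 8 sham arrays, beside 17.5% of 19726 probes. These were Anln, Ccna2, Ccnb1, Ccnb2, Cdc20, Mcm6, Plk1, Prc1, Tyms and Ube2c, an order seen after the values were known. The 2 arrays lay on different slides. Markers of other cells also set them apart. Summed Cy5 signals of skeletal muscle markers were 7008000 and 6848000 units on FLT-Sham 4 and 6, the highest of the 15 arrays, against 986600 and 3824000 on FLT-Sham 8 and 9. Those of macrophage and osteoclast markers were 206000 and 223000, the lowest of the 15, against 791000 and 415600. Probes above background numbered 20864 and 21461, against 14813 and 19424. The part of these in the order of the members was not tested.

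**Figure D2:**
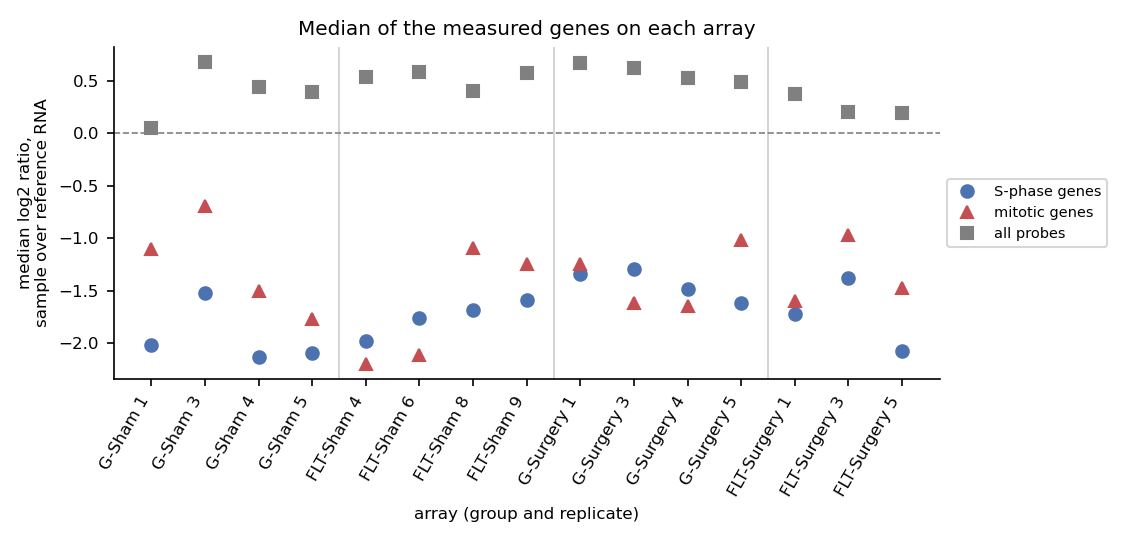
Median log2 ratio to the reference RNA (y axis) of the 12 S-phase members, the 15 mitotic members and all probes measured on 8 or more arrays, for each array (x axis, grouped). Both classes lie below all probes on every array, and the mitotic median is lowest on FLT-Sham 4 and 6.

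Other members did not pass. Mki67 had means of -0.61 ± 0.50 (SD, n = 4) in FLT-Sham and -1.09 ± 0.79 (SD, n = 4) in G-Sham, a difference of 0.47 (95% interval -0.59 to 1.54). The second Mki67 probe, above background on all 8 sham arrays, gave 1.36 (standard error 0.43, adjusted p = 0.491 in limma), with means of -2.54 and -3.90, and missed the cut-off by its p. Pcna differed by 0.08 (95% interval -0.73 to 0.89) and Ccnb1, above background on 2 of 4 G-Sham arrays, by -0.36 (95% interval -1.68 to 0.96). Another Ccnb1 probe, above background on 4 FLT-Sham arrays and 1 G-Sham array, gave 0.82 (standard error 0.53, adjusted p = 0.542 in limma). Intervals of this width leave room for changes of the size of the cut-off in Mki67 and Ccnb1, but not in Pcna. Of the lists fixed for comparison, 0 of 22 other replication genes and 0 of 29 other mitotic genes passed, with median differences of -0.03 and -0.29, and 21 of those 29 mitotic genes lay below 0. Among G1 regulators and inhibitors 0 of 25 passed and the median was 0.48.

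Of marker lists for other cells, adipocyte and osteoblast genes passed the cut-off in this comparison and marrow genes did not. Summed Cy5 signals of 11 erythroid markers were 39440 to 47460 units in G-Sham and 61830 to 101900 in FLT-Sham, with Klf1, Epb42 and Rhag among those above background on no array of either group, and 0 of 6 tested markers passed the cut-off. For 11 neutrophil and precursor markers the sums were 90650 to 231300 and 159200 to 284100, which overlap, and 0 of 10 tested passed. Of 6 adipocyte markers tested 2 were higher in FLT-Sham past the cut-off, Cidec by 4.23 on the log2 scale, with 1 of 4 G-Sham arrays above background, and Plin1, above background on no G-Sham array, at least 2.35-fold. Such a bound sets the mean of the brighter group against the lowest signal well above background on each array of the other, or the probe's own signal where that was higher, and is open to dye bias. Of 7 osteoblast and osteocyte markers Ibsp was higher past the cut-off, by 2.35 on the log2 scale. Precursors of blood cells divide, and the part of these markers in the members' values was not tested.

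Between FLT-Surgery and G-Surgery no member was past the cut-off, 0 higher and 0 lower of 27, beside 1.05% of 16548 probes higher and 2.09% lower. In limma 0 members reached an unadjusted p of 0.05, beside 16.4% of probes, and 0 members and 0% of probes an adjusted p of 0.05. The median difference was -0.14 over members and -0.20 over all probes. Medians of -0.07 for S-phase and -0.21 for mitotic members were both close to the latter.

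Cenpa, Plk1 and Anln had the smallest p among mitotic members. Cenpa, the histone variant that marks centromeres, read -1.49, -2.12, -2.13 and -2.10 on G-Surgery 1, 3, 4 and 5 and -3.06, -2.21 and -2.52 on FLT-Surgery 1, 3 and 5. All flown arrays lay below all ground arrays, a difference of -0.64 (standard error 0.32, adjusted p = 0.342 in limma) with 2 of 3 flown arrays above background, and Cenpa was the 1 member of 27 not overlapping in this direction, beside 7.54% of probes. Plk1, Polo-like kinase, went the other way, at -0.76, -0.91, -0.87 and -1.01 on G-Surgery arrays and -0.77, -0.24 and -0.14 on FLT-Surgery arrays, which overlap. Its difference was 0.50 (standard error 0.26, adjusted p = 0.356 in limma). Anln, which builds the contractile ring, differed by -0.43 (adjusted p = 0.464 in limma).

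Among S-phase members, Cdk2, E2f1 and Mcm7 had the smallest p. Cdk2 read 0.00, 0.04, 0.22 and -1.06 on G-Surgery 1, 3, 4 and 5 and -2.01, 0.21 and -1.40 on FLT-Surgery 1, 3 and 5, where only 1 of 3 arrays was above background. The difference of -0.87 had a standard error of 0.57 and an adjusted p of 0.444 in limma. E2f1 differed by -0.48 (adjusted p = 0.458 in limma) and Mcm7 by -0.28 (adjusted p = 0.560 in limma). E2f1 arrays ran from -1.35 to -0.78 in G-Surgery and from -2.04 to -1.14 in FLT-Surgery, so the groups overlapped, as did those of Mcm7.

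Members named for their role did not separate the surgery groups. Mki67 differed by -0.45 (95% interval -1.24 to 0.35), Pcna by -0.38 (95% interval -1.59 to 0.83) and Ccnb1 by -0.74 (95% interval -1.99 to 0.51). Pcna was above background on 1 of 3 FLT-Surgery arrays and Ccnb1 on 2 of 3. Each interval includes a 2-fold decrease. The second Mki67 probe gave -0.79 (standard error 0.55, adjusted p = 0.472 in limma), with means of -4.57 and -3.78 and 2 of 3 FLT-Surgery arrays above background. Ube2c differed by -0.21 by the probe used and by 0.42 by its second probe (adjusted p = 0.444 in limma). Other replication genes had a median of -0.39, with 14 of 19 below 0 and 0 past the cut-off, and other mitotic genes of -0.03, with 0 of 26 past it. Of 3 chondrocyte markers tested 1 was lower past the cut-off, Col2a1, the collagen of cartilage, at a log2 difference of -5.92 (FLT-Surgery minus G-Surgery), with 1 of 3 FLT-Surgery arrays above background. Summed signals of 7 chondrocyte markers were 1819 to 24060 units in G-Surgery and 623.8 to 1363 in FLT-Surgery. Sox9, Matn3 and Col10a1 were above background on no array of either group, and the part of cartilage in the members' values was not tested. All 9 skeletal muscle markers tested lay below 0, with a median of -1.70, and Myh2, a fast myosin heavy chain, was past the cut-off at -5.48. Of 8 neutrophil markers 7 lay below 0, with a median of -1.42 and 0 past the cut-off. The part of either in the members' values was not tested.

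**Figure D3:**
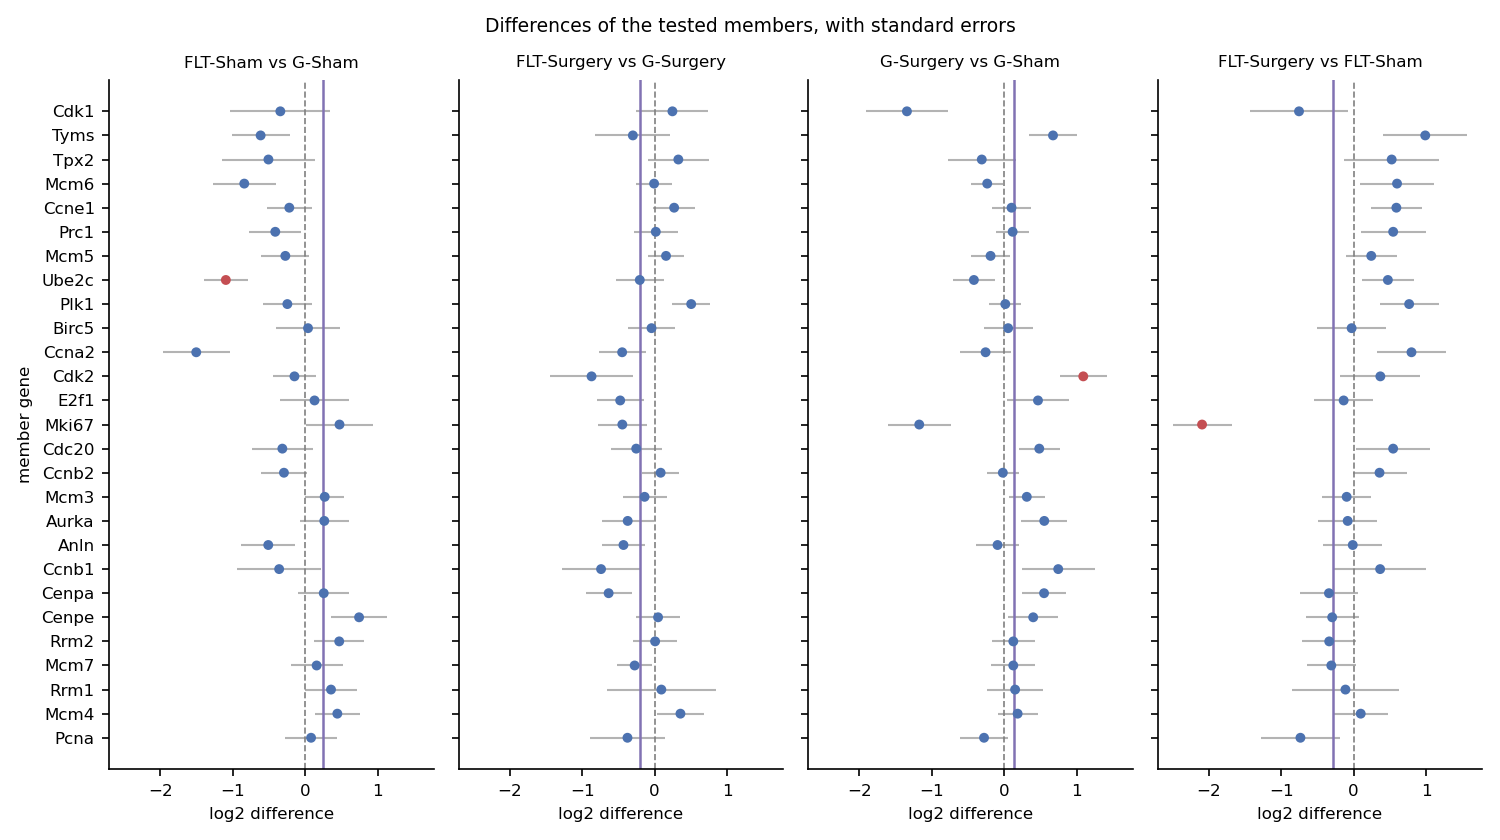
Log2 difference (x axis) of the 27 tested members (y axis, ordered by mean ratio to the reference) in the 4 comparisons of 2 groups, first minus second, with standard errors. Red points are past the cut-off (Ube2c, Cdk2 and Mki67, 1 each in 3 comparisons), the dashed line is 0 and the violet line is the median of all probes tested.

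Between G-Surgery and G-Sham, which asks what the defect changed on the ground, 1 of 27 members was higher past the cut-off and 0 were lower, beside 2.08% of 17675 probes higher and 0.509% lower. An unadjusted p of at most 0.05 was reached by 3 members, Cdk2, Mki67 and Cdk1, beside 10.9% of probes, and an adjusted p of 0.05 by 0 members, beside 0.0113% of probes. The median difference was 0.12 over members and 0.14 over all probes.

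Cdk2, the kinase of S-phase entry, was the member past the cut-off. On G-Sham 1, 3, 4 and 5 it read -1.28, -1.02, -1.31 and -1.54, against the G-Surgery values given above. Of the G-Surgery arrays, 3 lay near 0 and G-Surgery 5 lay within the G-Sham range, so the groups overlapped. The difference was 1.09 (standard error 0.33, adjusted p = 0.344 in limma). However, Cdk2 was above background on 1 of 4 G-Sham arrays and on all 4 G-Surgery arrays. It thus met the filter through G-Surgery, and the size of the difference is uncertain. The call was lost in 7 of 8 fits that left out an array, where the difference was 0.95 to 1.18, and held without G-Surgery 5, at 1.38. It was also lost with slide as a block, at 1.08, and with a further loess, where the difference was 0.66. With arrays centred on their medians the difference was 0.88 and Mki67 was called in its place. Over the 14 settings other than leaving out an array, the Cdk2 difference ran from 0.22 to 1.455.

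Mki67 was lower in G-Surgery on average by the probe used, short of the cut-off. It read -1.10, 0.02, -1.50 and -1.77 on G-Sham 1, 3, 4 and 5 and -2.86, -2.19, -1.72 and -2.27 on G-Surgery 1, 3, 4 and 5, groups that overlap. The difference of -1.17 (standard error 0.43, adjusted p = 0.394 in limma) missed the cut-off. The second Mki67 probe gave 0.12 (standard error 0.39, adjusted p = 0.917 in limma), with means of -3.78 in G-Surgery and -3.90 in G-Sham.

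Tyms, thymidylate synthase, differed by 0.67 (standard error 0.33, adjusted p = 0.492 in limma), from 0.77 to 1.33 on G-Sham arrays and from 1.04 to 2.37 on G-Surgery arrays. Pcna differed by -0.28 (95% interval -1.05 to 0.49) and Ccnb1 by 0.75 (95% interval -0.40 to 1.89). Other replication genes and other mitotic genes had 0 of 21 and 0 of 27 past the cut-off. Among G1 regulators 2 of 20 were higher past it, Cdkn2a, an inhibitor of cyclin D kinases, by 1.14 and Btg1, an antiproliferative gene, by 1.98 on the log2 scale. Summed erythroid signals were 11670 to 29430 units in G-Surgery, below those of G-Sham. Of 5 erythroid markers tested Hbb-b1, above background on no G-Surgery array, was lower past the cut-off, at least 2.24-fold. Of 4 chondrocyte markers Col2a1, above background on no G-Sham array, was at least 31.2-fold higher, and of 7 osteoblast and osteocyte markers Ibsp was higher, both past the cut-off. The part of these cells in the members' values was not tested.

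Between FLT-Surgery and FLT-Sham 1 of 27 members was lower past the cut-off and 0 were higher, beside 6.22% of 19136 probes lower and 0.423% higher. Only Mki67 reached an unadjusted p of 0.05, 1 of 27, beside 24.3% of probes, and 0 members an adjusted p of 0.05, beside 0.0836% of probes. The median difference was 0.10 over members and -0.28 over all probes, with 0.00 for S-phase and 0.36 for mitotic members. This comparison shares its flown arrays with those above, so its values are not independent of theirs.

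Mki67 gave the largest difference of any member past a cut-off. It read -0.78, -0.67, -1.09 and 0.10 on FLT-Sham 4, 6, 8 and 9 and -2.87, -2.92 and -2.33 on FLT-Surgery 1, 3 and 5. No array overlapped, the 1 member of 27 lower in this way beside 10.6% of probes, and the difference was -2.09 (standard error 0.41, 95% interval -3.04 to -1.15, adjusted p = 0.122 in limma). The second probe read -2.20, -2.34, -3.39 and -2.22 on FLT-Sham arrays and -3.96, -3.89 and -5.87 on FLT-Surgery arrays, the last not above background. Its difference was -2.04 (standard error 0.60, adjusted p = 0.149 in limma), so both probes gave nearly the same size. In each fit that left out an array Mki67 stayed past the cut-off, between -2.28 and -1.86, and with normexp background correction followed by loess it was -0.90 and missed it.

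**Figure D4:**
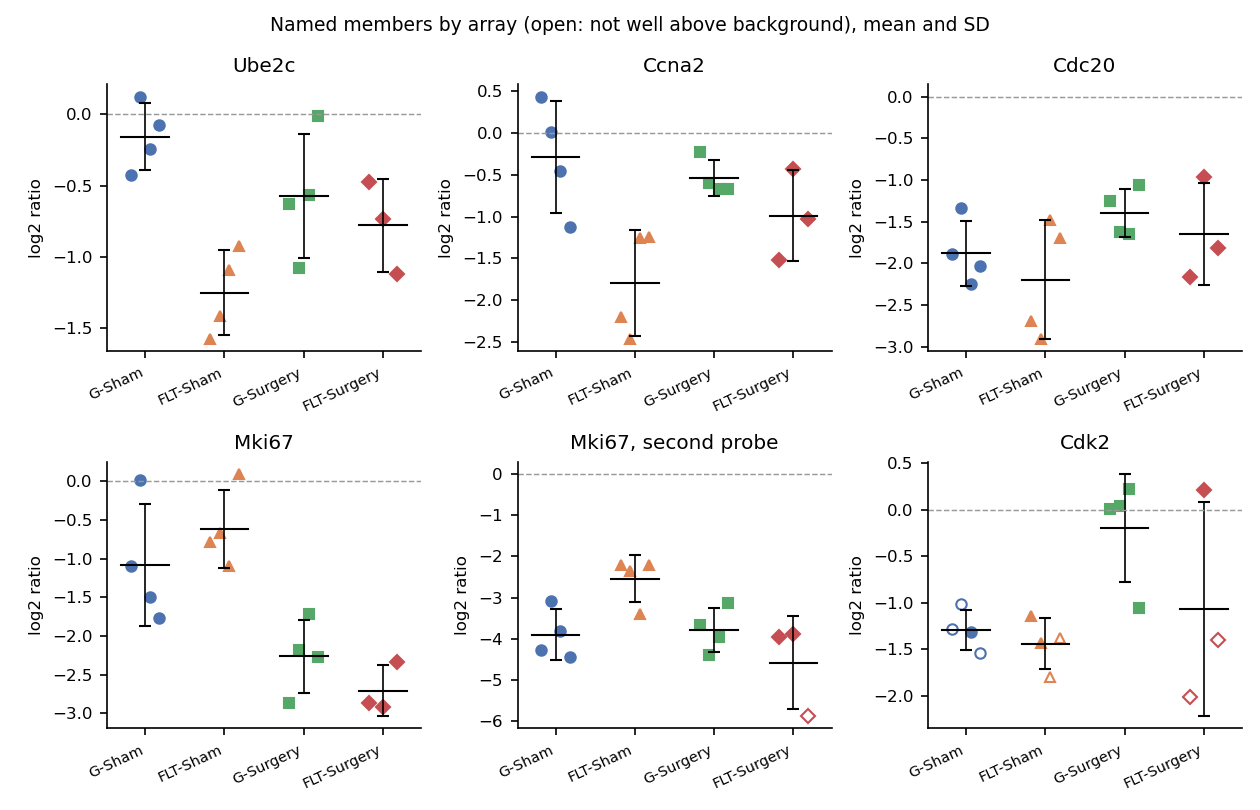
Log2 ratio to the reference RNA (y axis) of Ube2c, Ccna2, Cdc20, Mki67 by its 2 probes and Cdk2 in the 4 groups (x axis), with a point per array, open where the Cy5 signal was not well above background, and bars for the mean and SD. Ube2c and Ccna2 separate FLT-Sham from G-Sham, and both Mki67 probes separate FLT-Surgery from FLT-Sham.

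No other member reached the cut-off. Ccna2 differed by 0.80 (standard error 0.48, adjusted p = 0.298 in limma), Plk1 by 0.77 (adjusted p = 0.266 in limma) and Tyms by 0.99 (adjusted p = 0.294 in limma). Pcna, above background on 1 of 3 FLT-Surgery arrays, differed by -0.74 (95% interval -1.99 to 0.52), and it was past the cut-off without FLT-Surgery 1. Ccnb1, above background on 2 of 3, differed by 0.37 (95% interval -1.11 to 1.84). Its other probe, above background on no FLT-Surgery array, entered the fit through FLT-Sham alone, so its -1.14 is not a measured size. Other mitotic genes had a median of 0.12 and 0 of 29 past the cut-off, and other replication genes a median of -0.36 and 0 of 22. Of 24 G1 regulators E2f6, a repressor of the E2F family, was lower past it, with a log2 difference of -3.86 and 1 of 3 FLT-Surgery arrays above background.

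Some markers of other cells were lower past the cut-off in the same comparison. These were 5 of 6 tested erythroid (Alas2, Slc4a1, Gata1, Hbb-b1 and Hba-a1), 3 of 10 neutrophil (Mpo, Camp and Ngp) and 1 of 6 osteoblast and osteocyte markers (Alpl). They also held 4 of 6 adipocyte (Adipoq, Plin1, Cfd and Cidec) and 3 of 10 skeletal muscle markers (Acta1, Myh2 and Actn3). The other lists had 0 past it. All 3 T cell markers tested and 4 of 6 macrophage and osteoclast markers lay above 0, with medians of 0.50 and 0.51. B cell, chondrocyte and endothelial medians were -1.60, -1.24 and -3.51. Alpl, alkaline phosphatase of osteoblasts, was above background on no FLT-Surgery array and at least 9.02-fold lower there. Slc4a1, Gata1, Hbb-b1, Adipoq, Plin1 and Cidec were also above background on no FLT-Surgery array. Such markers entered the fit through FLT-Sham alone and could hardly come out higher in FLT-Surgery, so the counts above lean that way. Mpo, myeloperoxidase of neutrophil precursors, had a log2 difference of -4.81 (adjusted p = 0.0398 in limma). Erythroid sums were 27260 to 51400 units in FLT-Surgery, with Klf1, Epb42, Slc4a1, Gata1 and Hbb-b1 among those above background on no array, and neutrophil sums 18120 to 124800, with Ctsg, Ltf and Mmp8 on none. Both sums lay below those of FLT-Sham on every array. Their part in the difference of Mki67 was not tested.

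The interaction asks whether spaceflight acted differently with a defect than without, (FLT-Surgery minus G-Surgery) minus (FLT-Sham minus G-Sham), over all 15 arrays. Past the cut-off 0 members were higher and 0 lower, beside 0.358% of 21777 probes higher and 4.97% lower. In limma 0 members reached an unadjusted p of 0.05, beside 19.5% of probes, and 0 members and 0% of probes an adjusted p of 0.05. The median was -0.08 over members and -0.37 over all probes. Ube2c came nearest, at 0.89 (standard error 0.43, adjusted p = 0.269 in limma), followed by Cenpa at -0.89 (adjusted p = 0.302 in limma) and Ccna2 at 1.06 (adjusted p = 0.320 in limma). Among S-phase members Mcm6 at 0.83, Ccne1 at 0.49 and Cdk2 at -0.72 had the smallest p (adjusted p = 0.370, 0.497 and 0.520 in limma). Pcna stood at -0.46 (95% interval -1.81 to 0.90) and Ccnb1 at -0.38 (95% interval -2.18 to 1.42). Mki67 stood at -0.92 (95% interval -2.22 to 0.38) by the probe used, and its second probe at -2.15 (standard error 0.72, adjusted p = 0.187 in limma), which was past the cut-off but is not in the count above, since 1 probe was counted per gene. Bub3, a checkpoint gene among 31 other mitotic genes tested, was lower past the cut-off, at -2.96. Marker genes past it were all lower too, Slc4a1 among 6 erythroid, Mpo and Camp among 11 neutrophil, Ibsp and Alpl among 7 osteoblast and osteocyte, Col2a1 among 4 chondrocyte, Plin1 and Cidec among 6 adipocyte, Tie1 among 5 endothelial and Myh2 among 10 skeletal muscle markers tested. Their part in the members' values was not tested.

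Relative to all probes, members stood lower in FLT-Sham than in G-Sham by 0.46 on the log2 scale. The median over members minus that over all probes was -0.46, and this difference lay between -0.63 and -0.23 under all 22 alternatives run. Its size depended on the filter for dim probes, since the median of all probes was 0.24 as fitted. With no filter that median was 0 and the difference -0.23. With both channels above background on every array they were -0.004 and -0.26. For FLT-Surgery vs FLT-Sham the difference was 0.38, and -0.10 to 0.89 under 21 alternatives, above 0 in 20 of them. For the interaction it was 0.28, and 0.01 to 0.69 under 26 alternatives. In FLT-Surgery vs G-Surgery it was 0.06 and in G-Surgery vs G-Sham -0.02, and both took either sign among the alternatives. These are medians over a chosen list with no test. A further loess moved the median of all probes from -0.28 to 0.35 in FLT-Surgery vs FLT-Sham and turned the sign of 11 of 27 members there, and of 7 of 27 in FLT-Sham vs G-Sham.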

How the data were processed

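Expression was measured on 2-colour Agilent SurePrint G3 mouse arrays, 1 per mouse, with the sample in Cy5 and a common reference RNA in Cy3. The authors deposited scanner output of Agilent Feature Extraction 12.0 (per the submitters' processing notes), with processed signal intensity per channel after background subtraction and dye normalization, and their log10 ratio. The deposited series value table held the same log10 ratio, within 0.005. The deposited log10 ratios, Cy5 over Cy3, were converted here to log2. No further loess was applied, since dye normalization was already in the values, and it was run as an alternative.

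Spots flagged as outliers were left out, among them Aurka on FLT-Surgery 5, and spots of a probe averaged. A probe entered a fit if its Cy5 signal was flagged as clear of background on 3 or more arrays of that comparison. A probe dim in a group could thus enter through the other group alone, and then tends to come out lower where it is dim. Linear models were fitted in limma (3.58.1, R 4.3.3), each on the 2 groups compared alone, and for the interaction on all 15 arrays. The cut-off was a fold change of at least 2 with an unadjusted p of at most 0.01, and p-values were adjusted by Benjamini and Hochberg over all probes tested. The fit was tested on simulated data. Intervals are 95% intervals of the fit, and their width is limited by 3 or 4 arrays a group.

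Some erythroid markers are not reported here by name. Members and gene lists were chosen with earlier results of these data known. The rule names members past the cut-off or, where none passed, the 3 of each class with the smallest p, and in every comparison Mki67, Pcna and Ccnb1 (Top2a and Mcm2 were too dim to test), with genes of the other lists past the cut-off, by name. Others, and second probes, were named after their values were seen. Alternatives covered loess, centring, background correction, filters, single-channel values, slide, array weights, probe averaging and each array left out. Normexp used median spot signals, where the plan named means. Log ratios of exactly 0 taken as missing were an alternative chosen after seeing the data.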

Additional observations from a re-analysis of the deposited data

Results flagged for a closer look

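Of 87 groups of 4 arrays examined for members, 4 held an array far from the other 3, where chance gives about 1 in 20, and FLT-Surgery with 3 arrays was not examined. Rrm1 read -4.38 on G-Surgery 4, and the others lay between -2.99 and -2.75. Ccna2 read -0.22 on G-Surgery 1, and the others lay between -0.67 and -0.60. Cenpa read -1.49 on G-Surgery 1, and the others lay between -2.13 and -2.10. Tpx2 read -0.96 on FLT-Sham 8, and the lowest of the others was at 1.21.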

How the results depend on the processing

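Of 285 values under alternatives for 13 results, 216 kept their side of the cut-off or, for medians, moved by less than the spread between arrays, 46 moved and 23 lost the cut-off. No gene past the cut-off changed sign, but medians of the members did, as given below. For FLT-Sham vs G-Sham the count of members past the cut-off, 1 as reported, was 2 with arrays centred, with both channels above background or with all 15 arrays in the fit, 3 with array weights, 0 with slide as a block or probes averaged, and 0 to 2 with each array left out. For FLT-Surgery vs G-Surgery it was 0, 1 after a further loess (Tpx2), and 0 with each array left out. For G-Surgery vs G-Sham it was 1, and 0 with loess, normexp, both channels above background, Cy5 alone, all 15 arrays or slide as a block, and 0 to 1 with each array left out. For FLT-Surgery vs FLT-Sham it was 1, 2 with loess or with no filter, 0 with normexp, 5 with array weights, and 1 to 2 with each array left out (2 without FLT-Surgery 1). For the interaction it was 0, 1 with loess, centring or no filter, 3 with normexp, 2 with array weights, and 0 with each array left out. The cause was not tested.

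The members' median difference in FLT-Sham vs G-Sham was -0.22, -0.46 with loess, -0.51 with centring and -0.36 with normexp. It was -0.65 within slide 1, -0.07 within slide 2 and -0.27 to -0.04 with each array left out. In FLT-Surgery vs G-Surgery it was -0.14, 0.17 with loess, 0.19 with centring, 0.15 with normexp, and -0.25 to -0.02 with each array left out. It turned below 0 in G-Surgery vs G-Sham with loess, centring (-0.10), normexp (-0.05) or slide as a block (-0.08), and in FLT-Surgery vs FLT-Sham with probes averaged (-0.08) or without FLT-Sham 4 (-0.02). In G-Surgery vs G-Sham 0.02 to 0.21 with each array left out and -0.25 within slide 1. In FLT-Surgery vs FLT-Sham it was 0.60 with loess, 0.58 with centring, 0.56 with normexp, and -0.02 to 0.28 with each array left out. For the interaction it was 0.50 with loess, 0.45 with centring, 0.64 with normexp, 0.31 with both channels above background, 0.38 with array weights, and -0.19 to 0.16 with each array left out.

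Replicate numbers were not taken as pairs. Deviations of same-numbered arrays correlated between -0.36 and 0.35, which over so few numbers cannot exclude a pairing. With a replicate block, G-Surgery vs G-Sham had 0 members past the cut-off (Cdk2 at 1.09 lost the call), and FLT-Surgery vs G-Surgery had 0. Array weights gave 5 members in FLT-Sham vs G-Sham, 9 in FLT-Surgery vs FLT-Sham and 4 in the interaction at an adjusted p of 0.05. Over all probes 5508, 11010 and 7420 reached it, and the fits as reported gave 0 members. In FLT-Surgery vs FLT-Sham the fit over all 15 arrays gave 1 member, beside 174 probes. The fit without FLT-Sham 8 also gave 1, beside 6141 probes. Signal near background left 11 members untested. With normexp, probes past the cut-off numbered 10 higher and 23 lower in FLT-Sham vs G-Sham, where Ccna2 was called in place of Ube2c, 172 and 36 in FLT-Surgery vs G-Surgery, 72 and 108 in G-Surgery vs G-Sham, 97 and 196 in FLT-Surgery vs FLT-Sham, and 173 and 148 for the interaction.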
